A study of Homo sapiens with 4 samples.

Results

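The plasminogen activator and tissue factor genes described here are PLAU, PLAT, PLAUR, SERPINE2, F3, TFPI, TFPI2, THBD and THBS1. They were taken as a named list of 9 genes, out of 18132 genes with a probe set of their own, and comprise every one of the 37 probe sets, of 49293 on the array, that the platform annotation assigns to exactly 1 of these genes. Messenger RNA was measured on 1-colour Affymetrix arrays in SCC-15, a human cell line established from a squamous carcinoma of the tongue, and all 4 arrays come from this 1 line. The tested cells received a microRNA mimic, made to act as a mature microRNA does (2 arrays), and the control cells received the negative control miR-NC (2 arrays). All cells were transfected 24 h after seeding, with the mimic at 30 nM, and were collected 36 h later. The series title and design text call the mimic miR-762, whereas the labels of both mimic samples call it miR-585-5p, so the group is called mimic here. Nothing in the labels said that the 2 arrays of a group came from separate cultures, so p-values measure the spread between arrays, which may be technical.

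Urokinase (PLAU) and tissue plasminogen activator (PLAT) are secreted serine proteases that cut plasminogen into plasmin, which dissolves fibrin and degrades matrix around cells. The urokinase receptor (PLAUR) holds urokinase on the cell surface, and serpins such as the product of SERPINE2 block both activators. Tissue factor (F3) is the membrane receptor for factor VII that starts blood coagulation; TFPI inhibits that complex, the related TFPI2 inhibits plasmin and other serine proteases in the matrix, and thrombomodulin (THBD) turns thrombin towards activation of protein C. Thrombospondin 1 (THBS1) is a secreted matrix glycoprotein that binds several of these proteins and releases active TGF-beta. Squamous epithelium and its carcinomas are known to make urokinase, its receptor, tissue factor and thrombomodulin.

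The mature sequences of the microRNAs named by the submitters are shown because the sources disagree on which of them was transfected. They come from RefSeq (GRCh38.p14), written 5′ to 3′, with the seed, bases 2 to 8, in capitals.
miR-762: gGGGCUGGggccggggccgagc
miR-585-5p: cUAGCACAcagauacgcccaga
The seeds differ, so the names do not stand for 1 family, and no value below depends on which is right.

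The 250 bases before an annotated transcript start are shown for 3 genes that rose, F3, TFPI2 and THBS1, and for PLAUR, which fell, so that the letters can be set beside the transcription factor genes described further on. They are RefSeq sequences, 5′ to 3′ on the gene's strand. Capitals mark matches on either strand to the AP-1 motif TGANTCA, the GC box GGGCGG, the EGR1 motif GCGNGGGCG, which can overlap a GC box, or the TEAD motif CATTCC.
F3 (GRCh38.p14, chr1:94541760-94542009, minus strand): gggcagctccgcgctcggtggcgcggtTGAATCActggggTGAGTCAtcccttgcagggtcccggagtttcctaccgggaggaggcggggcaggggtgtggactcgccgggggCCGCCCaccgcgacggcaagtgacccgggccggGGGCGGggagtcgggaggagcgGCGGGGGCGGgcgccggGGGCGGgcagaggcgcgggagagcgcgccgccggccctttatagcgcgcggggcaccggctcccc
TFPI2 (GRCh38.p14, chr7:93890754-93891003, minus strand): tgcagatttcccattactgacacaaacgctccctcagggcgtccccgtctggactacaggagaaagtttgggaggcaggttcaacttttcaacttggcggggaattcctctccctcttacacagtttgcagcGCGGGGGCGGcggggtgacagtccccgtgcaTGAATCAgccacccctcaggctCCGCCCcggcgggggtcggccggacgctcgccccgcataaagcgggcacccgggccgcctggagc
THBS1 (GRCh38.p14, chr15:39580829-39581078, plus strand): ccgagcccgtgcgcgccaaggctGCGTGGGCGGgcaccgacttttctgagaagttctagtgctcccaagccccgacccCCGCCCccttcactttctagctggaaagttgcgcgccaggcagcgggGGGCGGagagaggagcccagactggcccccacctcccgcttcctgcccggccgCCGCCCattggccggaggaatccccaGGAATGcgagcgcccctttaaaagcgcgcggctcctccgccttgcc
PLAUR (GRCh38.p14, chr19:43670170-43670419, minus strand): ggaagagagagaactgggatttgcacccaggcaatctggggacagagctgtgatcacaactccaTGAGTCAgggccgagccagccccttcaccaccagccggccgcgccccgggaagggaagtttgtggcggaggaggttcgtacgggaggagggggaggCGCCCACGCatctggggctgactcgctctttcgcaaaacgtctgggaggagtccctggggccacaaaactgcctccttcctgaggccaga

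Values are log2 of the deposited intensity, differences are mimic minus control on that scale, and each gene is given by its brightest probe set, judged by the mean of the 4 arrays. Probe sets with a mean log2 value below 2.83, the lowest 30%, were left out as dim. Replicate arrays correlated at r = 0.998 (mimic) and 0.997 (control) across probe sets, and mimic with control arrays at 0.991. Of 10 squamous epithelial markers 7 were measured and all 7 lay above the dim level. Their differences, mimic minus control, had a median of 0.15 and ran from -0.14 for SFN to 1.15 for the basal keratin gene KRT14, with 6 positive. Of 5 endothelial markers, relevant because THBD, TFPI and PLAT are known from vessel walls, 4 lay above the dim level, with a list median of 3.85 and 3.94 in the mimic arrays, against 4.03 and 4.02 in the control arrays. The fibroblast list had medians of 2.09 and 2.18 in the mimic arrays, against 2.35 and 2.52 in the control arrays, the blood and immune list 3.39 and 3.50 against 3.49 and 3.45, and the platelet list 3.74 and 3.79 against 3.96 and 3.999. The part of other cells in the results was not tested.

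Of the 9 genes, 4 rose (THBD, TFPI2, THBS1 and F3), 3 fell (PLAT, TFPI and PLAUR) and 2 did not pass (PLAU and SERPINE2), by limma with Benjamini-Hochberg adjustment over 14340 genes and a threshold of 0.05. In the same test 30.1% of all genes were called, 17.7% as higher and 12.3% as lower. THBD and TFPI2 were called with a difference of 2-fold or more, as were 2.06% of all genes upward and 0.195% downward. The mimic and control arrays did not overlap for any of the 9 genes, as was so for 70.4% of all genes. The median difference was 0.21 over the 9 genes, against -0.02 over all genes tested. The list was chosen with earlier results of these data known, so its counts are a description.

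**Figure D1:**
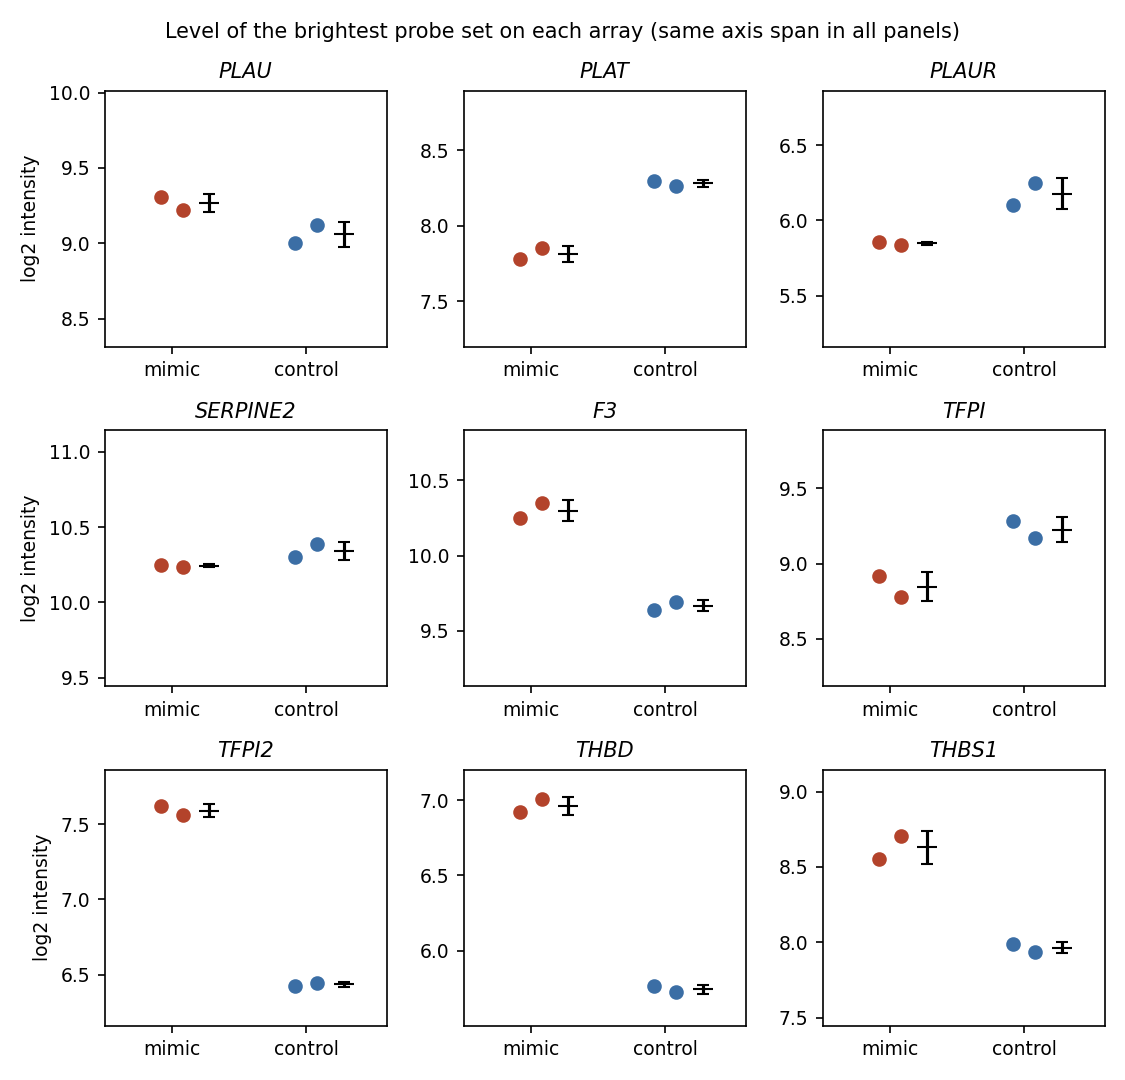
Log2 intensity of the brightest probe set of each of the 9 genes on each array (points; mimic left in red, control right in blue), with the group mean ± SD (n = 2) as a black bar; every panel spans the same range of log2 units. THBD, TFPI2, THBS1 and F3 lay higher in both mimic arrays, PLAT, TFPI and PLAUR lay lower, and the groups of PLAU and SERPINE2 were close together.

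Among the plasminogen activators, PLAT fell, while PLAU did not pass. PLAT (chromosome 8, 42174718 to 42207565, GRCh38.p14) had log2 values of 7.78 and 7.85 in the mimic arrays, against 8.30 and 8.27 in the control arrays. Both mimic arrays lay below both control arrays, by more than the gap within either group, and the difference was -0.47 ± 0.061 (SE), 1.38-fold lower (adjusted p = 0.00759). All 7 probe sets of PLAT gave a negative difference, from -0.49 to -0.0013, and 4 of them were called lower when each probe set was tested on its own; in that test 7.95% of 31711 probe sets were called lower and 14.5% higher. The groups overlapped for 1 of the 7, which had log2 values of 3.55 and 3.51 in the mimic arrays, against 3.56 and 3.50 in the control arrays.

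PLAU (chromosome 10, 73908832 to 73917494), the gene of urokinase, had log2 values of 9.31 and 9.22 in the mimic arrays, against 9.002 and 9.12 in the control arrays. Its arrays did not overlap, but the lower mimic array and the higher control array differed by about as much as arrays of 1 group. The difference was 0.21 ± 0.072 (SE; adjusted p = 0.0882), with a 95% confidence interval of 0.02 to 0.39. A further probe set gave 0.47 without passing (adjusted p = 0.0766), and the third, below the dim level, gave -0.12.

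PLAUR (chromosome 19, 43646095 to 43670169), the urokinase receptor gene, fell in its brightest probe set. That probe set had log2 values of 5.86 and 5.84 in the mimic arrays, against 6.10 and 6.25 in the control arrays. The mimic arrays were nearly equal and the control arrays more spread, and the difference was -0.33 ± 0.073 (SE), 1.26-fold lower (adjusted p = 0.0291). All 5 probe sets gave negative differences, from -0.52 to -0.08, of which 2 were called lower and 2 had overlapping groups. The brightest probe set is of the kind whose probes may also bind other transcripts (name ending _x_at). With probe sets of the _x_at and _s_at kinds left out, PLAUR stood at -0.12 (adjusted p = 0.415), and with the mean over its probe sets at -0.24 (adjusted p = 0.0652).

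SERPINE2 (chromosome 2, 223975045 to 224039286) encodes protease nexin 1, an inhibitor of urokinase, tissue plasminogen activator and thrombin. It had log2 values of 10.25 and 10.24 in the mimic arrays, against 10.30 and 10.39 in the control arrays. These values lay close together, with a difference of -0.10 ± 0.062 (SE; adjusted p = 0.266) and a 95% confidence interval of -0.26 to 0.06. None of its 6 probe sets passed, 2 gave positive and 4 negative differences, and all lay between -0.17 and 0.09.

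The tissue factor gene rose and the gene of its inhibitor TFPI fell. F3 (chromosome 1, 94529173 to 94541759), the tissue factor gene, had log2 values of 10.25 and 10.35 in the mimic arrays, against 9.64 and 9.70 in the control arrays. Both mimic arrays were clearly above both controls, with a difference of 0.63 ± 0.066 (SE), 1.55-fold higher (adjusted p = 0.00445). All 3 probe sets of F3 were called higher, at 0.63, 0.74 and 1.06. The 2 larger differences came from the dimmer probe sets, the largest of which had log2 values of 5.87 and 5.90 in the mimic arrays, against 4.76 and 4.88 in the control arrays.

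TFPI (chromosome 2, 187464230 to 187554435), whose product inhibits the complex of tissue factor and activated factor VII, had log2 values of 8.92 and 8.78 in the mimic arrays, against 9.28 and 9.17 in the control arrays. It was lower in both mimic arrays, with a difference of -0.38 ± 0.080 (SE), 1.30-fold lower (adjusted p = 0.0261). Its 3 probe sets gave -0.38, -0.33 and -0.15, without overlap between the groups, and 2 of them were called lower. With the _s_at and _x_at kinds left out, the brightest remaining probe set gave -0.15 (adjusted p = 0.169).

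TFPI2 (chromosome 7, 93885396 to 93890753), which encodes a Kunitz-type inhibitor of plasmin and other matrix serine proteases, rose. It had log2 values of 7.62 and 7.56 in the mimic arrays, against 6.43 and 6.45 in the control arrays. The groups stood far apart relative to the gap within each, with a difference of 1.15 ± 0.059 (SE), 2.22-fold higher (adjusted p = 0.00113), which ranked 195th among the 14340 genes ordered from the largest increase. Another probe set gave 1.27, and the third, with log2 values of 1.43 and 1.47 in the mimic arrays, against 1.26 and 1.41 in the control arrays, lay below the dim level. All 3 probe sets of TFPI2 are of the _x_at or _s_at kind, so no value remained when those were left out.

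THBD (chromosome 20, 23045633 to 23049672), the thrombomodulin gene, had the largest increase of the 9 genes. Its log2 values were 6.92 and 7.005 in the mimic arrays, against 5.76 and 5.72 in the control arrays. The difference of 1.22 ± 0.063 (SE), 2.33-fold higher (adjusted p = 0.00113), ranked 159th among all genes tested. Its dimmer probe set was also called higher, at 0.52, with log2 values of 4.35 and 4.26 in the mimic arrays, against 3.78 and 3.79 in the control arrays. Both probe sets thus moved the same way, and they differed more than 2-fold in size of difference on the log2 scale.

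THBS1 (chromosome 15, 39581079 to 39599466), the thrombospondin 1 gene, rose in 2 of the 4 probe sets tested. The brightest had log2 values of 8.55 and 8.71 in the mimic arrays, against 7.99 and 7.94 in the control arrays. Both mimic arrays were higher, by 0.67 ± 0.076 (SE), 1.59-fold (adjusted p = 0.00553), and a dimmer probe set rose by 0.52. A probe set nearly as bright, however, had log2 values of 7.69 and 7.82 in the mimic arrays, against 7.75 and 7.79 in the control arrays, a difference of -0.02. The mean over all of the gene's tested probe sets gave 0.27, which did not pass (adjusted p = 0.0524).

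**Figure D2:**
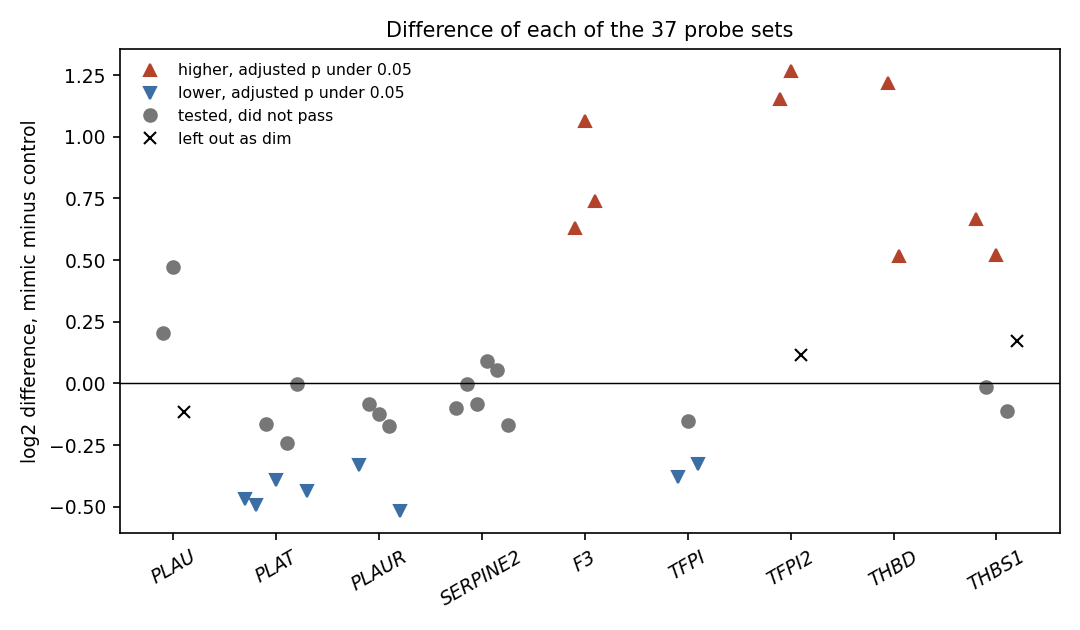
Log2 difference, mimic minus control, of each of the 37 probe sets, grouped by gene and placed from the brightest at the left of each gene; triangles mark probe sets called higher or lower on their own, circles those tested that did not pass, and crosses those left out as dim. F3, TFPI2 and THBD have all tested probe sets called higher, while PLAT, PLAUR, TFPI and THBS1 each mix called and uncalled probe sets.

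Over the 37 probe sets, 34 passed the filter on dim values, of which 9 were called higher, 8 lower and 17 did not pass. In the same test over all probe sets 22.4% were called. Among the 34, the mimic arrays lay above the control arrays in 11 and below them in 15, and the groups overlapped in 8; over all probe sets tested, 66.6% had groups that did not overlap. The 3 left out were those of PLAU, TFPI2 and THBS1 with the lowest level.

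Ratios of a pair of these genes within an array are free of any shift common to the whole array, and were set to a mean of 0 in the control arrays. Each ratio used only the brightest probe set of both genes. Their other probe sets gave differences of other sizes, as described above, so the size of a ratio rests on that choice. The log2 ratio of F3 to TFPI was 0.89 and 1.13 in the mimic arrays, against -0.08 and 0.08 in the control arrays, so activator and inhibitor changed unequally by 1.01 ± 0.17 (SD, n = 2). TFPI2 to TFPI gave 1.49 and 1.57 in the mimic arrays, against -0.07 and 0.07 in the control arrays. F3 to THBD moved the other way, with -0.60 and -0.58 in the mimic arrays, against -0.05 and 0.05 in the control arrays. PLAU to PLAUR gave 0.57 and 0.50 in the mimic arrays, against 0.01 and -0.01 in the control arrays, and PLAU to PLAT 0.75 and 0.59, against -0.07 and 0.07. The 5 ratios were chosen with the genes' own differences known and are a description, and with 2 arrays against 2 an exact permutation test cannot give a two-sided p below 0.333.

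No member call held when either mimic array was left out of the limma fit. Without mimic replicate 1 or mimic replicate 2, 0 of the 9 genes passed, as for all genes of the array, and 7 of the 9 had an unadjusted p under 0.05 in either case. THBD and TFPI2 kept their calls without control replicate 1 (adjusted p = 0.046 for both) and without control replicate 2 (adjusted p = 0.043 for both), and the other calls were lost. Over the 4 fits, the difference of THBD ranged from 1.18 to 1.26, TFPI2 from 1.12 to 1.18, THBS1 from 0.59 to 0.75 and F3 from 0.58 to 0.68. PLAT ranged from -0.50 to -0.43, PLAUR from -0.40 to -0.26, with -0.26 found without control replicate 2, and TFPI from -0.45 to -0.31. The genes that did not pass moved more relative to their size, PLAU between 0.15 and 0.27 and SERPINE2 between -0.14 and -0.06.

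**Figure D3:**
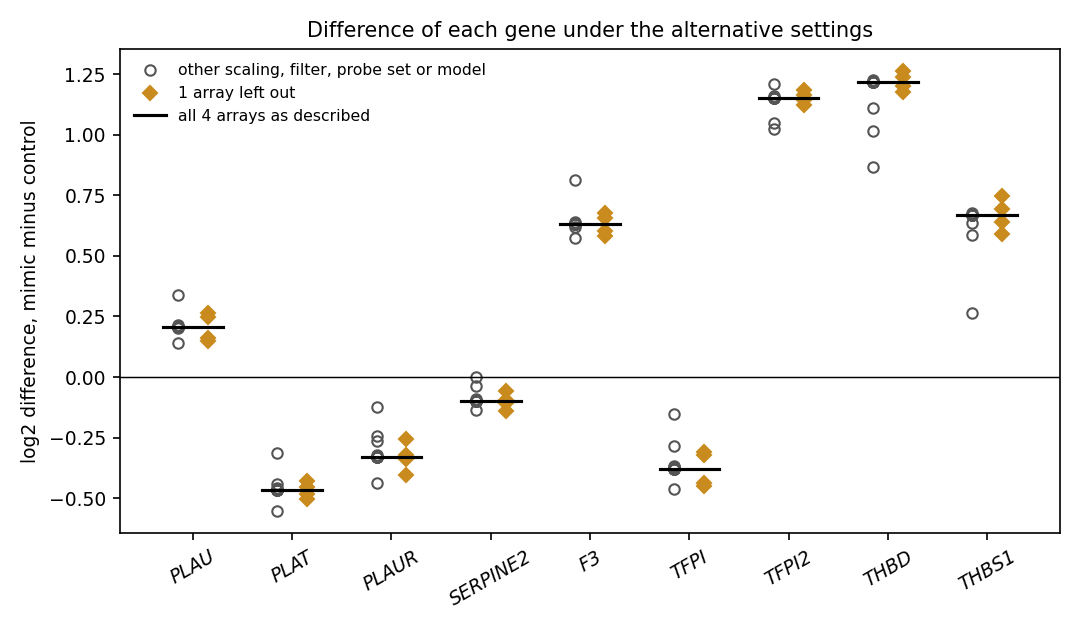
Log2 difference, mimic minus control, of each gene as reported (black line), under other scaling, filters, probe set choices and models (open circles) and with 1 array left out (diamonds). No difference changed sign; with the mean over its probe sets THBS1 was at 0.27 and THBD at 0.87.

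Among other genes of the plasminogen and pericellular protease system, 6 of 23 rose and 5 fell, while 12 did not pass, so 47.8% were called, against 30.1% of all genes, with a median difference of 0.04. This share depended on the probe sets used. The mean over a gene's probe sets gave 7 of 23 called, against 4279 of 14340 genes. Leaving out _s_at and _x_at probe sets gave 9 of 19, against 3300 of 12723 genes. The calls in this list and the 3 that follow rest on all 4 arrays: with limma, 0 genes of any list passed without mimic replicate 1 or 2, when 9 to 13 genes of a list had an unadjusted p under 0.05, and 1 to 3 passed without control replicate 1 or 2. The largest changes were those of MMP3, the stromelysin 1 gene (-1.16 ± 0.11 SE, adjusted p = 0.0039), SERPINA5, which encodes the protein C inhibitor, a serpin that also blocks urokinase (-0.75 ± 0.14, adjusted p = 0.018), MRC2, the urokinase receptor-associated collagen receptor (0.67 ± 0.057, adjusted p = 0.00273), and SORL1, a sorting receptor (0.63 ± 0.079, adjusted p = 0.00702). MMP3 had log2 values of 3.89 and 3.84 in the mimic arrays, against 4.87 and 5.19 in the control arrays. SERPINA5 was also low, at 4.86 and 5.08 in the mimic arrays, against 5.89 and 5.56 in the control arrays. MMP3 and SERPINA5 had 1 tested probe set each, and that of MMP3 is of the _s_at kind. Of the 4 tested probe sets of MRC2, 2 had the opposite sign. LRP1, the endocytic receptor that clears protease-inhibitor complexes, gave -0.18 and did not pass (adjusted p = 0.0917), and 1 of its 2 tested probe sets had the opposite sign (0.03). PLG, the plasminogen gene itself, was below the dim level, at 2.65 and 2.81 in the mimic arrays, against 2.87 and 2.87 in the control arrays.

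Coagulation genes went both ways. Among the 25 tested, 5 rose and 5 fell, while 15 did not pass (40% called, against 30.1% of all genes; median difference 0.06). LMAN1, a cargo receptor that carries coagulation factors out of the endoplasmic reticulum, rose by 0.80 ± 0.066 (SE, adjusted p = 0.00255), GAS6, a vitamin K-dependent ligand, by 0.48 ± 0.060 (adjusted p = 0.0068), and VKORC1, the vitamin K epoxide reductase gene, by 0.43 ± 0.063 (adjusted p = 0.0101). ANO6, a scramblase gene needed for exposure of procoagulant phosphatidylserine, fell by 0.45 ± 0.083 (adjusted p = 0.0187). F7, the gene of the factor VII that tissue factor binds, named after its value was seen, fell by 0.40 ± 0.065 (adjusted p = 0.0135). Its log2 values were low, at 4.54 and 4.59 in the mimic arrays, against 4.92 and 5.01 in the control arrays. The remaining lower calls, F2, F2RL3 and SERPIND1, had control means of 5.96, 4.58 and 5.03. For comparison, the endothelial marker list had medians of 4.03 and 4.02 in the control arrays. After a further quantile normalization of the values the split of this list was 4 higher and 7 lower. PROCR, the endothelial protein C receptor, which works beside thrombomodulin, gave 0.16 and did not pass (adjusted p = 0.139). The thrombin receptor gene F2R was dim in all arrays, at 2.20 and 2.21 in the mimic arrays, against 2.10 and 2.15 in the control arrays, and F2RL1 was not analysed here.

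Of 28 matricellular and receptor genes tested, 8 rose and 3 fell, while 17 did not pass (39.3% called, against 30.1% of all genes; median difference 0.15). Leaving out _s_at and _x_at probe sets gave 6 of 22 called, against 3300 of 12723 genes. The mean over a gene's probe sets gave 11 of 28, against 4279 of 14340 genes. CCN2, which encodes the matricellular connective tissue growth factor, rose 2.04-fold (1.03 ± 0.064 SE, adjusted p = 0.00144). Its log2 values were low, at 4.58 and 4.59 in the mimic arrays, against 3.51 and 3.60 in the control arrays. CCN2 had 1 tested probe set, which is of the _s_at kind. TGFBR1, the type I TGF-beta receptor gene, rose by 0.79 ± 0.060 (adjusted p = 0.0021) and the ligand gene TGFB1 by 0.68 ± 0.058 (adjusted p = 0.00278), whereas TGFBR2, the type II receptor gene, fell by 0.84 ± 0.078 (adjusted p = 0.00344). The TGFBR2 arrays had log2 values of 8.26 and 8.09 for mimic, against 9.01 and 9.01 for control, without overlap.

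Transcription factor genes of the kinds known to act on promoters of this system also went both ways, with 6 higher, 6 lower and 21 not passing of 33 tested (36.4% called, against 30.1% of all genes; median difference -0.01). WWTR1, which encodes the Hippo effector TAZ, rose by 1.31 ± 0.068 (SE, adjusted p = 0.00113), although 1 of its 3 probe sets had the opposite sign. EGR1, an immediate early zinc finger factor, rose by 0.85 ± 0.088 (adjusted p = 0.00437), ATF3, a stress-induced bZIP factor, fell by 0.81 ± 0.069 (adjusted p = 0.00279), and ETS1 fell by 0.55 ± 0.060 (adjusted p = 0.00504). Of the listed genes of AP-1 subunits, TEAD factors and SP factors, FOSL2 (0.41), JUN (0.28) and TEAD4 (0.37) were called higher and FOSB (-0.37) lower. FOS, FOSL1, JUNB, JUND, TEAD1, SP1 and SP3 did not pass. The split of this list moved to 4 higher and 9 lower after quantile normalization.

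**Figure D4:**
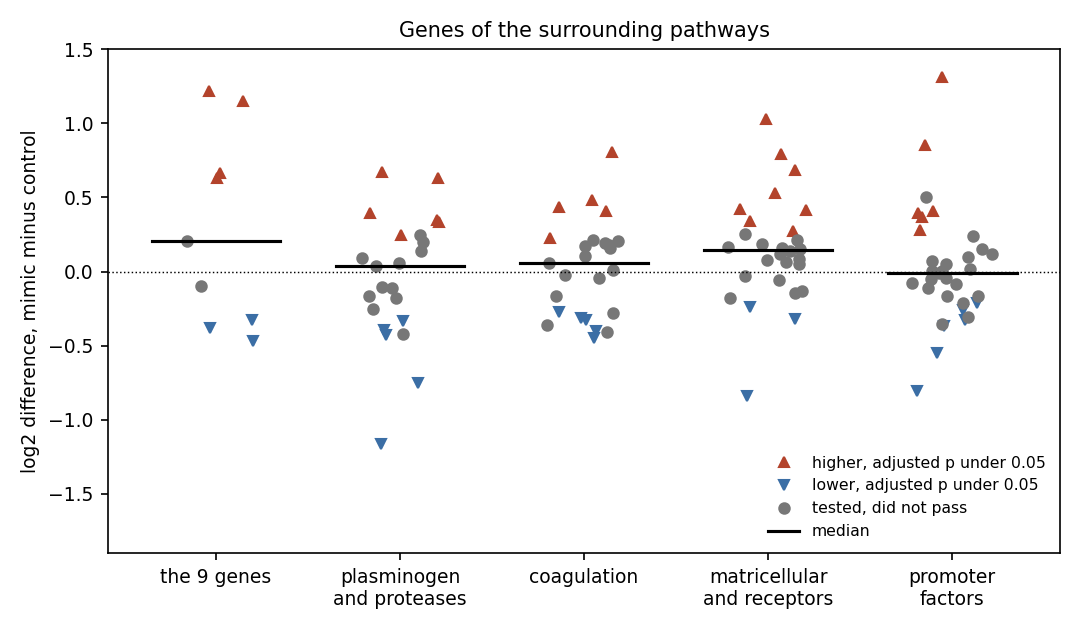
Log2 difference, mimic minus control, of the 9 genes and of the tested genes of the 4 surrounding lists (triangles, called higher or lower; circles, did not pass; black line, list median; horizontal scatter has no meaning). Each of the 4 surrounding lists holds calls in both directions, with medians from -0.01 to 0.15.

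The motif letters were counted in 9 windows of 7 genes (all but PLAT and THBD), the 4 printed above and those of TFPI, PLAU and SERPINE2, of which PLAU and SERPINE2 have 2 windows each. The AP-1 motif occurred in 3 of the 9 windows, those of F3, TFPI2 and PLAUR, against 6.57% of all 35116 windows. F3 held 2 matches, which begin 223 and 210 bases before the start, TFPI2 1 match at 87 and PLAUR 1 match at 186. The EGR1 motif occurred in 4 of the 9, those of F3, TFPI2, THBS1 and PLAUR, against 8.41% of all windows, and the GC box in 6 of the 9, against 42.6%. THBS1 alone of the 7 genes had the TEAD motif, found in 11.9% of all windows. The window of TFPI, which fell, held none of the 4 motifs. Both directions of change are present among the genes that hold the AP-1 or EGR1 letters, the downward one through PLAUR alone. The PLAUR call was lost without _s_at and _x_at probe sets and with the mean over its probe sets. Among the risen genes, the THBS1 call was also lost with the mean over its probe sets. TFPI2 had no value without _s_at and _x_at probe sets. A link between these letters and the direction of change was not tested. A match describes letters, not binding.

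The genes whose profile over the 4 arrays lay closest to that of THBD, each centred on its own mean, were NUP37 (root mean square distance 0.021 log2 units), FOXO3 (0.031) and TRIQK (0.037). Those closest to TFPI2 were HMGN1 (0.0061), CAV2 (0.015) and BTBD3 (0.021). Such profiles hold 4 points in 2 groups, and the difference, mimic minus control, was 1.25 for NUP37 and 1.15 for HMGN1, close to those of THBD and TFPI2.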

How the data were processed

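Biotin-labelled cRNA from 2 µg of total RNA was hybridised, per the labels' protocols, to 1 array per sample (2 mimic, 2 control). The deposited values are 1 intensity per probe set and array on a linear scale (1.62 to 11401), made by the authors with RMA, per the submitters' processing notes; its version is not given in the sources used here. RMA compresses differences of dim probe sets, and no detection calls were used. Log2 was taken. Genes were named through the platform annotation, with 44961 of 44988 single-gene probe sets updated by gene identifier to GRCh38.p14 RefSeq symbols. Probe sets with several genes (1832) or none (2473) and the lowest 30% by mean were left out, and the brightest probe set stood for each gene, leaving 14340 genes. Groups were compared with limma 3.58.1 (R 4.3.3; lmFit, eBayes), with no block for the replicate number and Benjamini-Hochberg adjustment at 0.05 over all genes; each single-gene probe set was also tested on its own (31711). Some zero variances were offset by limma. In 10 simulations of the 14340 genes with 200 changed, limma recovered 22.9% of changes of 0.5 and 88% of changes of 1, with 4.25% of calls false. In the data 4310 genes were called, and the adjustment depends on how many genes change. These rates therefore do not describe the sensitivity of the reported test. With arrays, their number limits the precision. The members, the 4 pathway lists and the tests were chosen with earlier results of these data known. Named genes were the members, PLG, F2R, PROCR, LRP1 and F2RL1, the 4 largest called changes of each list, and the 3 closest profiles for each of the 2 members with the largest difference. F7, the remaining lower coagulation calls and the AP-1, TEAD and SP genes were named after their values were seen. Alternatives covered scaling, dim filter, pseudocount, probe set choice, variance model, replicate block and each array left out.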

Additional observations from a re-analysis of the deposited data

How the results depend on the processing

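No difference of the 9 genes changed sign under any alternative run. Leaving out 1 array at a time gave 0 to 2 called genes of the 9 (7 in the full data), 0 to 963 called genes of the array (4310), 0 to 2 of the plasminogen and protease list (11), 0 to 1 of the coagulation list (10), 0 to 3 of the matricellular and receptor list (11) and 0 to 2 of the promoter factor list (12). In these limma fits, with 1 residual degree of freedom and a lone array assumed to vary like the other group, 4198 to 5631 genes of the array and 7 to 8 of the 9 had an unadjusted p under 0.05. Without _s_at and _x_at probe sets, 4 of the 8 remaining genes of the system and 6 of 22 of the matricellular list were called. In that setting 3300 of 12723 genes of the array were called. With the mean over a gene's probe sets, 5 of the 9 genes (PLAUR and THBS1 did not pass) and 7 of 23 of the plasminogen and protease list were called. The same setting called 4279 of 14340 genes of the array. The replicate numbers were not shown to pair the arrays (the correlation of same-numbered deviations over genes was -0.001). A replicate block left 6 of the 9 genes called (PLAUR was at adjusted p = 0.0583), 2918 genes of the array, and 6 of the matricellular list. Quantile normalization turned the split over all genes into 2058 higher and 2619 lower, against 2544 and 1766 as deposited, and left 4 higher and 3 lower of the 9. PLAU passed with log2(value + 16) (adjusted p = 0.0426) and with a trended, robust variance (adjusted p = 0.0187).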
